A study of Mus musculus with 10 samples.

Results

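The 10 genes described here are a core set of the NRF2 antioxidant pathway: the transcription factor gene Nfe2l2, the gene of its inhibitor Keap1, and 8 target genes (Nqo1, Gclc, Gclm, Hmox1, Txnrd1, Srxn1, Cbr3 and Slc7a11). They were chosen by symbol, and all 10 are among the 24537 gene symbols of the count table. RNA was sequenced from 10 whole-liver samples of male mice whose hepatocytes had been edited in vivo by an adeno-associated virus of serotype 8 carrying the small Cas9 of Staphylococcus aureus behind the hepatocyte promoter TBG, with a guide RNA behind U6. The young controls (genotype label Rosa26-KO, 3 livers) received a guide against Rosa26, a locus used as a neutral target, at 7 months of age and were 9 months old at collection. The old controls (Rosa26-KO, 3 livers) received the same virus at 23 months and were 25 months old. The old knockout mice (4 livers, also 23 and 25 months) received a guide against Cd44, which encodes a cell surface receptor for hyaluronan. Their replicates 1 and 2 carry the label Cd44-KO_g4 (guide 4) and their replicates 3 and 4 the label Cd44-KO_g2 (guide 2). All groups therefore carried the virus and Cas9, no uninjected liver was analysed here, and only hepatocytes were targeted while the RNA came from every cell of the liver.

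NRF2, the product of Nfe2l2, is a transcription factor that is made and destroyed continuously in unstressed cells. KEAP1 holds it and presents it to a ubiquitin ligase built on CUL3, so that it is degraded. Electrophiles and oxidants modify cysteines of KEAP1, NRF2 then escapes, pairs with a small MAF protein and binds antioxidant response elements near genes for glutathione synthesis, thioredoxin recycling, quinone and carbonyl reduction and heme breakdown. In the liver this programme also covers many detoxifying enzymes, and because it is controlled largely through the NRF2 protein, the Nfe2l2 transcript is not a direct measure of it.

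The core letters of the antioxidant response element, TGACNNNGC, and the related letters TGACTCA were searched on both strands of the RefSeq promoters (GRCm38.p6, 250 bases before to 50 after each start). The motifs overlap where TGACTCA is followed by GC. Promoters were listed for 8 of the 10 genes, Gclc and Hmox1 being the others. These 8 genes have 10 promoters in the table, 3 of them of Txnrd1. TGACNNNGC was found in 4 of the 10 promoters (1 each of Nfe2l2, Gclm, Txnrd1 and Srxn1), against 12.4% of all 32851 promoters of that length. TGACTCA was found in 1 of the 10, that of Srxn1, against 5.2% of all promoters. The matches before the start are shown. TGACNNNGC is the core as searched here, and variants of that core were not searched. Neither TGACTCA match of Srxn1 is also a TGACNNNGC match. Capitals mark the matched letters, and each sequence reads 5′ to 3′ on the strand of its gene.
Nfe2l2, chr2:75704880-75704913, minus strand: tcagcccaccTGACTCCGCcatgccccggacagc
Gclm, chr3:122245408-122245446, plus strand: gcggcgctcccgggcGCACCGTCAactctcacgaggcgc
Txnrd1, chr10:82859099-82859137, plus strand: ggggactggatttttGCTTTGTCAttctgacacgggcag
Srxn1, chr2:152105407-152105500, plus strand: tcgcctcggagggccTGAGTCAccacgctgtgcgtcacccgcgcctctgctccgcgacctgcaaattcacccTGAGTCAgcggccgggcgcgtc
In Gclm, Txnrd1 and Srxn1 the motif is read on the opposite strand. The Txnrd1 match belongs to the second of its 3 RefSeq promoters, 92 bases before that start. The pair of TGACTCA matches in Srxn1 lies 102 and 45 bases before the start, and its TGACNNNGC match lies past the start and is not shown. No match was found in the windows of Keap1, Nqo1, Cbr3 and Slc7a11, which says only that these letters are not in these 300 bases.

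Total counts ranged from 15821198 to 21710228 per liver. Levels are given as CPM, the counts scaled to library size with TMM factors. Genes are called where edgeR's quasi-likelihood test over 13909 genes left an adjusted p below 0.05. All 10 genes of the set passed the filter on low counts. Cd44, the targeted gene, had 10.1 to 16.6 CPM in young control, 14.2 to 29.99 in old control, 18.9 and 29.0 with guide 4 and 17.6 and 13.1 with guide 2. Knockout and old control livers overlapped, and Cd44 was called between them in 0 of 15 alternatives. Both guide 2 livers lay below both guide 4 livers. The knockout livers are therefore named by their labels. Old control replicate 2 stood apart in immune cell markers: its 11 macrophage markers summed to 2025 CPM and its 8 neutrophil markers to 270.5 CPM, where replicates 1 and 3 reached no more than 1117 and 16.1 CPM. The hepatocyte markers, which include Alb, Apoa1 and Hnf4a, were abundant in every liver, with sums of 103188 to 133213 CPM in young control, 85798 to 111087 in old control and 92732 to 97021 in knockout livers. In whole-liver RNA, fewer cells of a type and less RNA per cell cannot be told apart.

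The genes the results turn on are protein-coding and lie, on GRCm38, at chr9:77754535-77794485 (Gclc), chr10:82833951-82897712 (Txnrd1), chr2:152105516-152111376 (Srxn1), chr16:93683215-93690990 (Cbr3), chr8:75093621-75100589 (Hmox1) and chr8:107388225-107403206 (Nqo1). Per length of annotated exon, Gclc was the most abundant transcript of the set. Its product is the catalytic subunit of glutamate-cysteine ligase, the rate-limiting enzyme of glutathione synthesis. Gclc averaged 89.2 CPM per kb of exon over the 10 livers, followed by Srxn1 at 37.4 and Txnrd1 at 28.9. Nfe2l2 itself came next at 27.3, then Hmox1 at 24.6, Gclm at 21.6 and Keap1 at 16.04. Nqo1 averaged 12.5, Cbr3 6.82 and Slc7a11 0.0425 CPM per kb. Neighbours in this order overlapped in their ranges over the livers, apart from Cbr3 and Slc7a11. Slc7a11 encodes the light chain of the cystine importer, and it was at the limit of detection, with 4 to 22 counts per liver. The genes differed in how much they varied: Keap1 spanned 1.33-fold from the lowest to the highest liver and Gclm 1.47-fold, while Srxn1 spanned 5.30-fold, Hmox1 8.25-fold and Cbr3 10.2-fold.

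**Figure D1:**
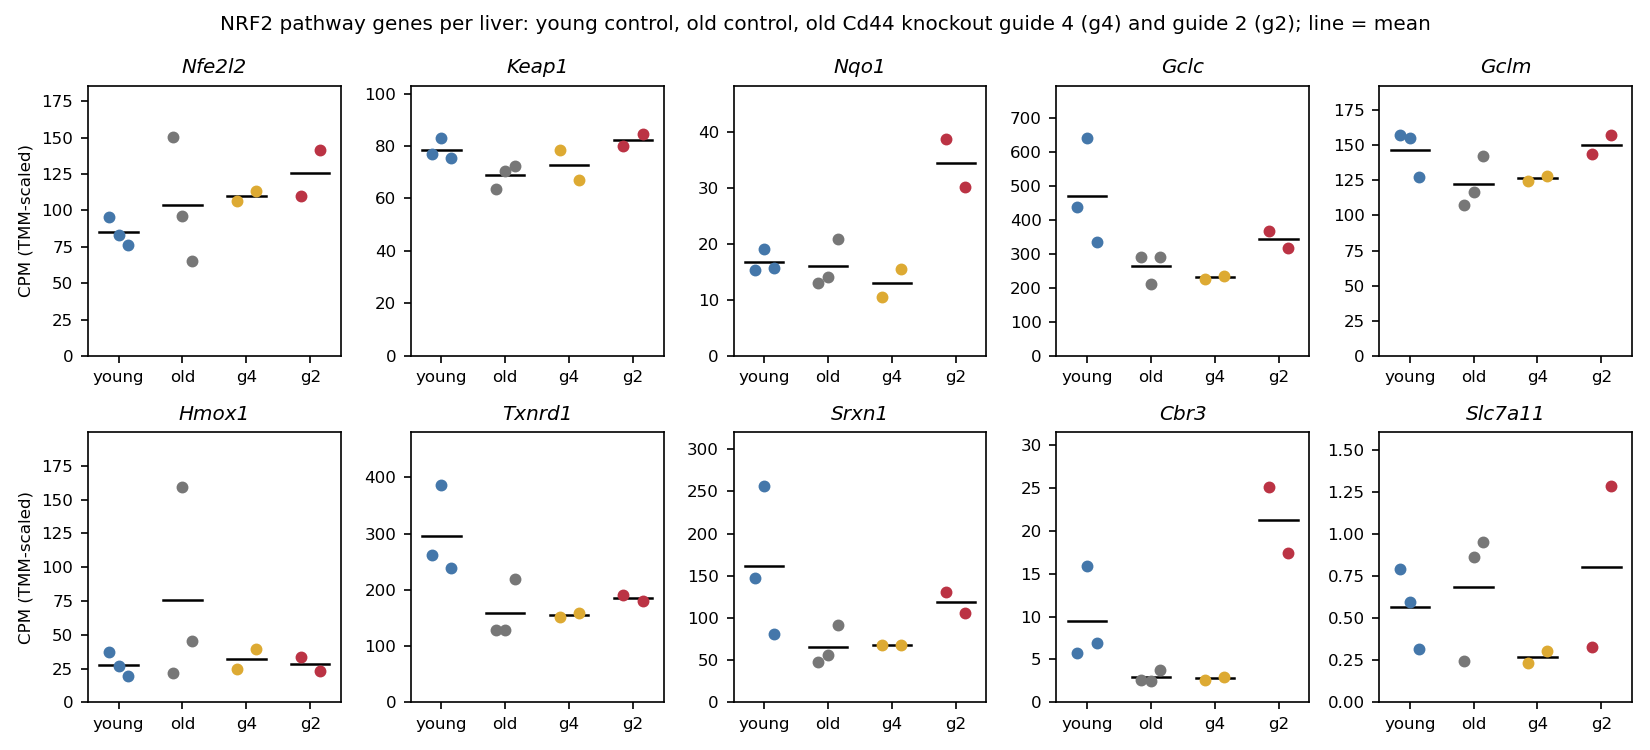
TMM-scaled CPM (linear axes from 0) of the 10 genes in each liver, with young controls, old controls, knockout guide 4 (g4) and knockout guide 2 (g2) side by side; points are livers and lines are group means. Txnrd1 sits above 238 CPM in all young livers and below 220 CPM in all old ones, Hmox1 is high in 1 old control at 159 CPM, and Cbr3 and Nqo1 are highest in both guide 2 livers.

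The first comparison asked how the pathway differs between old and young control livers. Of the 10 genes, 3 were called and all 3 fell with age: Txnrd1, Srxn1 and Gclc. The background is large, since 22.8% of all genes tested were called, 14.1% higher and 8.66% lower. The median log2 fold change over the 10 genes was -0.23, against 0.04 over all genes. Groups did not overlap for 4 of the 10 genes (Keap1, Gclc, Txnrd1 and Cbr3), all lower in old control livers, against 37.7% of all genes in either direction.

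Txnrd1 encodes the cytosolic selenoenzyme that reduces thioredoxin with NADPH. It had 261, 387 and 239 CPM in the young livers and 129, 128 and 220 CPM in old control replicates 1 to 3. Every young liver was above every old one, with replicate 3 the highest of the old controls. The fall was 0.89 on the log2 scale (log2 fold change -0.89, SE 0.24, adjusted p 0.0253 by edgeR). The Txnrd1 locus on chromosome 10 also holds the gene Eid3, and reads in the shared stretch cannot be assigned without knowing the strand.

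Srxn1 encodes sulfiredoxin, which restores overoxidised peroxiredoxins. It had 147, 256 and 81.2 CPM in young livers and 48.4, 55.7 and 91.7 CPM in old controls. Old control replicate 3 lay above young replicate 3, so the groups overlapped. The log2 fold change was -1.31 (SE 0.40, adjusted p 0.0398 by edgeR).

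Gclc had 439, 641 and 335 CPM in young and 293, 211 and 291 CPM in old control livers, without overlap. Mean Gclc was 472 ± 156 CPM in young and 265 ± 47.0 CPM in old control livers (SD, n = 3 each), and the difference on the log2 scale was -0.83 (SE 0.26, adjusted p 0.0412 by edgeR). Its partner Gclm, the regulatory subunit of the same ligase, had 128 to 158 CPM in young and 107 to 142 CPM in old control livers. The Gclm difference, -0.26 on the log2 scale (SE 0.15, adjusted p 0.223 by edgeR), did not pass the test.

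These 3 calls depended on single livers of both control groups and on the groups in the fit. Those of Srxn1 and Gclc also depended on the test and on the scaling. Without young replicate 2, which had the highest level of all 3 genes, none of the 10 genes was called, and the log2 fold changes were -0.66 for Txnrd1, -0.81 for Srxn1 and -0.55 for Gclc. None of the 10 was called without old control replicate 2 either. The 3 calls were also lost without old control replicate 1 and with only the young and old controls in the fit, and Srxn1 and Gclc were lost without young replicate 1 and with limma voom. With library totals in place of TMM factors the median of all genes moved from 0.04 to 0.34, the share of called genes that were higher moved from 62.0% to 91.6%, and Txnrd1 fell by 0.60 and was still called while Gclc (-0.52, adjusted p 0.117) and Srxn1 (-1.0, adjusted p 0.0603) were not. Over the 12 alternatives the edgeR, DESeq2 or limma adjusted p ran from 0.00323 to 0.108 for Txnrd1, from 0.00721 to 0.182 for Srxn1 and from 0.0103 to 0.176 for Gclc. In an exact two-sided permutation test of 3 against 3 livers, Gclc and Txnrd1 each gave p = 0.10, the smallest value that design allows, and Srxn1 gave p = 0.20. Summed hepatocyte markers were also lower on average in old control livers (85798 to 111087 CPM against 103188 to 133213 CPM), and their part in these falls was not tested.

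Cbr3, a carbonyl reductase often used as a readout of NRF2, had 5.75, 15.9 and 6.91 CPM in young and 2.65, 2.46 and 3.82 CPM in old control livers. The groups did not overlap, but the log2 fold change of -1.67 (SE 0.78) had adjusted p 0.14 by edgeR. Over 12 alternatives it ran from 0.0468 to 0.42, and Cbr3 was called in 1 of them, the fit with only the young and old controls. Nqo1, the NADPH quinone reductase that is the best known target of NRF2, had 15.3, 19.1 and 15.8 CPM in young and 13.0, 14.1 and 21.0 CPM in old control livers, a log2 fold change of -0.06 (SE 0.40). Nqo1 thus overlapped fully, while Cbr3 was lower in each old control than in each young liver.

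Hmox1 encodes the inducible heme oxygenase, which opens heme to biliverdin and is abundant in macrophages that clear red cells. It had 37.1, 26.6 and 19.3 CPM in young livers and 21.6, 159 and 45.3 CPM in old controls. The high value was in replicate 2, the liver with the high macrophage and neutrophil markers. The log2 fold change of 1.45 (SE 0.57, adjusted p 0.0859 by edgeR) did not pass, and without that liver it was 0.27. Hmox1 was called in 3 of 12 alternatives, with library totals (1.79, adjusted p 0.0419), without old control replicate 1 (1.88, adjusted p 0.0179) and without old control replicate 3 (1.71, adjusted p 0.0451), and the highest adjusted p was 0.631, without old control replicate 2. In old control replicate 2, 9 of 11 macrophage, 8 of 8 neutrophil and 6 of 7 erythroid markers exceeded the other old controls. The same was so for 7 of 9 stellate and fibroblast and 6 of 7 T and NK cell markers. It was so for 4 of 8 endothelial, 3 of 7 cholangiocyte, 3 of 6 B and plasma cell and 1 of 10 hepatocyte markers. The share over all genes was not counted. Summed macrophage markers ran from 294 to 434 CPM in young, from 574 to 2025 in old control and from 508 to 999 in knockout livers. The 3 livers with the highest Hmox1 were also the 3 with the highest summed macrophage markers. Below them the orders differed. Young replicate 1 had 37.1 CPM of Hmox1 at 434 CPM of markers, and old control replicate 1 had 21.6 at 574. The part of these cells in the Hmox1 level was not tested.

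**Figure D2:**
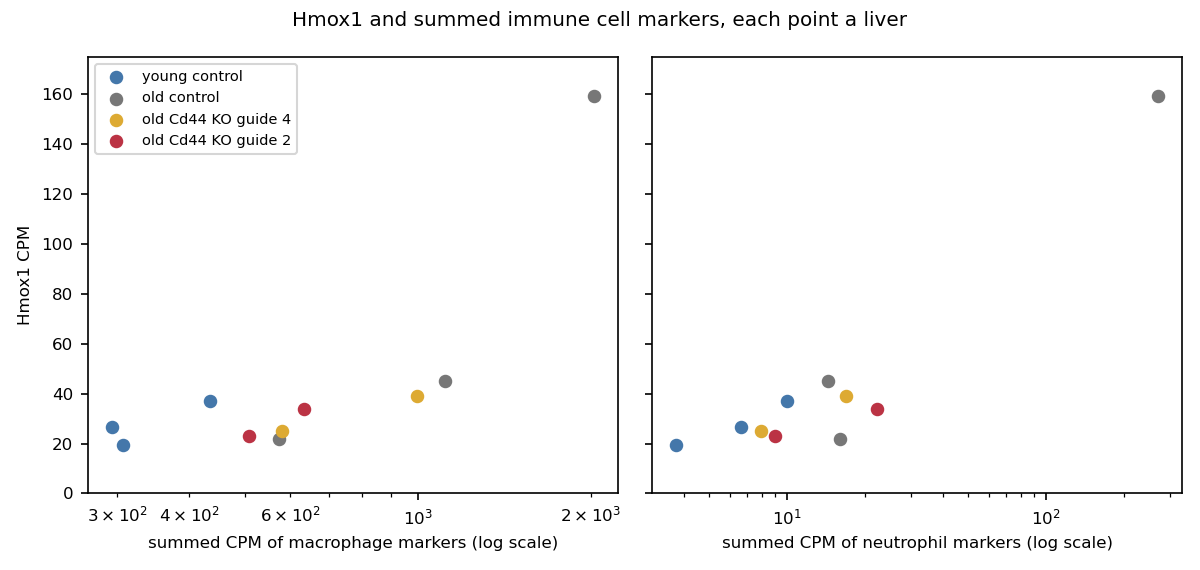
Hmox1 CPM (linear axis) against the summed CPM of 11 macrophage markers (left) and 8 neutrophil markers (right), both on log axes; each point is 1 liver, coloured by group. Old control replicate 2 stands alone at 159 CPM of Hmox1, 2025 CPM of macrophage markers and 270.5 CPM of neutrophil markers.

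The regulators at the top of the pathway were not called with age. Nfe2l2 had 95.5, 83.1 and 76.5 CPM in young and 150, 96.0 and 65.4 CPM in old control livers, a log2 fold change of 0.29 (SE 0.25, adjusted p 0.417 by edgeR). The old controls held both the highest and the lowest Nfe2l2 value of all 10 livers. Keap1 had 75.4 to 83.1 CPM in young and 63.8 to 72.5 CPM in old control livers, without overlap, and its log2 fold change of -0.19 (SE 0.12, adjusted p 0.271 by edgeR) turned to 0.12 with library totals. Slc7a11 differed by 0.28 (SE 0.70), which at 5 to 20 counts per liver was not detectable.

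Around these regulators, 6 of 17 other regulators, partners and relatives of NRF2 were called with age, against 22.8% of all genes. Of the 6, 2 were higher and 4 lower. The higher ones were Nfe2, a relative of NRF2 found in blood cells and platelets (0.51 to 1.06 CPM in young and 2.998 to 7.07 CPM in old control livers, log2 fold change 2.63), and Btrc, an adaptor of a second ligase that degrades NRF2 (0.65). Lower were Syvn1, an endoplasmic reticulum ligase (-2.22), Gsk3b, a kinase that marks NRF2 for that second ligase (-0.53), Cul3, the scaffold that KEAP1 uses (-0.43), and Sqstm1, the autophagy receptor p62 that competes for KEAP1 (-0.63, from 811 ± 132 to 524 ± 77.3 CPM, SD, n = 3 each). Cul3 had adjusted p 0.0403 by edgeR and the other 5 genes lower values. In 6 fits that each left out 1 liver, Cul3 lost the call in 5, Sqstm1 in 4 and Btrc in 3. Syvn1 lost it in 2, Gsk3b in 1 and Nfe2 in 0. Mafg, a small MAF partner, differed by 0.54 (adjusted p 0.0674 by edgeR) and Bach1, which represses the same elements, by -0.13 (adjusted p 0.716 by edgeR).

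Of 15 glutathione genes tested, 3 were called lower and 1 higher, where 8.66% of all genes were called lower and 14.1% higher. Gss, the second enzyme of glutathione synthesis, fell from 116 ± 15.3 to 75.1 ± 9.40 CPM (SD, n = 3 each; log2 fold change -0.63, adjusted p 0.0139 by edgeR), and Gsr, which reduces oxidised glutathione, fell from 124 ± 19.3 to 83.0 ± 13.2 CPM (-0.57, adjusted p 0.0253 by edgeR). Glo1, which clears methylglyoxal with glutathione, fell by 0.52, and Gpx3, a secreted peroxidase, rose by 1.08. Of 14 other thioredoxin genes, 3 were called higher and 1 lower, also near the 22.8% of all genes: Sesn1 rose by 0.93, Txnip, which binds and inhibits thioredoxin, by 0.83 and Txnrd3 by 0.59, while mitochondrial Txn2 fell by 0.39 on the log2 scale. Thioredoxin itself (Txn1, -0.38) and Prdx1 (-0.49, adjusted p 0.0593 by edgeR) did not pass. Of 6 fits that each left out 1 liver, Txnrd3 lost the call in 5, Txnip, Txn2 and Gsr in 4. Glo1 and Gpx3 lost it in 3, Gss in 2 and Sesn1 in 0.

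Of the remaining lists, detoxification and superoxide and peroxide enzymes held more calls towards lower than towards higher levels. NADPH supply and heme and iron handling had 1 call in each direction. Of 34 detoxifying genes known to respond to NRF2, 7 fell and 1 rose. The 8 calls are a share close to the 22.8% of all genes, of which 8.66% were lower and 14.1% higher. Mgst1, a membrane glutathione transferase, fell by 0.63, Ugdh, which makes the sugar donor for glucuronidation, by 0.86, the epoxide hydrolase Ephx1 by 0.68 and the glutathione transferase Gsta4 by 0.72 on the log2 scale. Akr1b8, an aldo-keto reductase, rose from 2.55 ± 0.889 to 5.12 ± 0.633 CPM (SD, n = 3 each; 1.0, adjusted p 0.0223 by edgeR). Among 10 NADPH-forming enzymes, Me1, malic enzyme, fell by 1.09 and Idh2 rose by 0.40. In heme and iron handling, Fth1, the ferritin heavy chain, fell by 0.43 and Slc40a1, the iron exporter ferroportin, rose by 0.98 on the log2 scale. Of 9 superoxide and peroxide enzymes, catalase (Cat, -0.78), Sod2 (-0.50) and Msra (-0.39) fell and extracellular Sod3 rose by 1.41. The medians of these lists were -0.37 for detoxification, -0.19 for NADPH supply, -0.09 for heme and iron and -0.29 for superoxide and peroxide enzymes, against 0.04 over all genes. Of the 17 genes named from all 7 wider lists that fell, all 17 were also lower in direction with library totals, but 13 lost the call, the others being Syvn1, Me1, Ugdh and Cat. All 10 named genes that rose were still called. In 6 fits that each left out 1 liver, Me1 and Sod3 lost the call in 0. The other genes named in this paragraph lost it in 2 to 4.

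**Figure D3:**
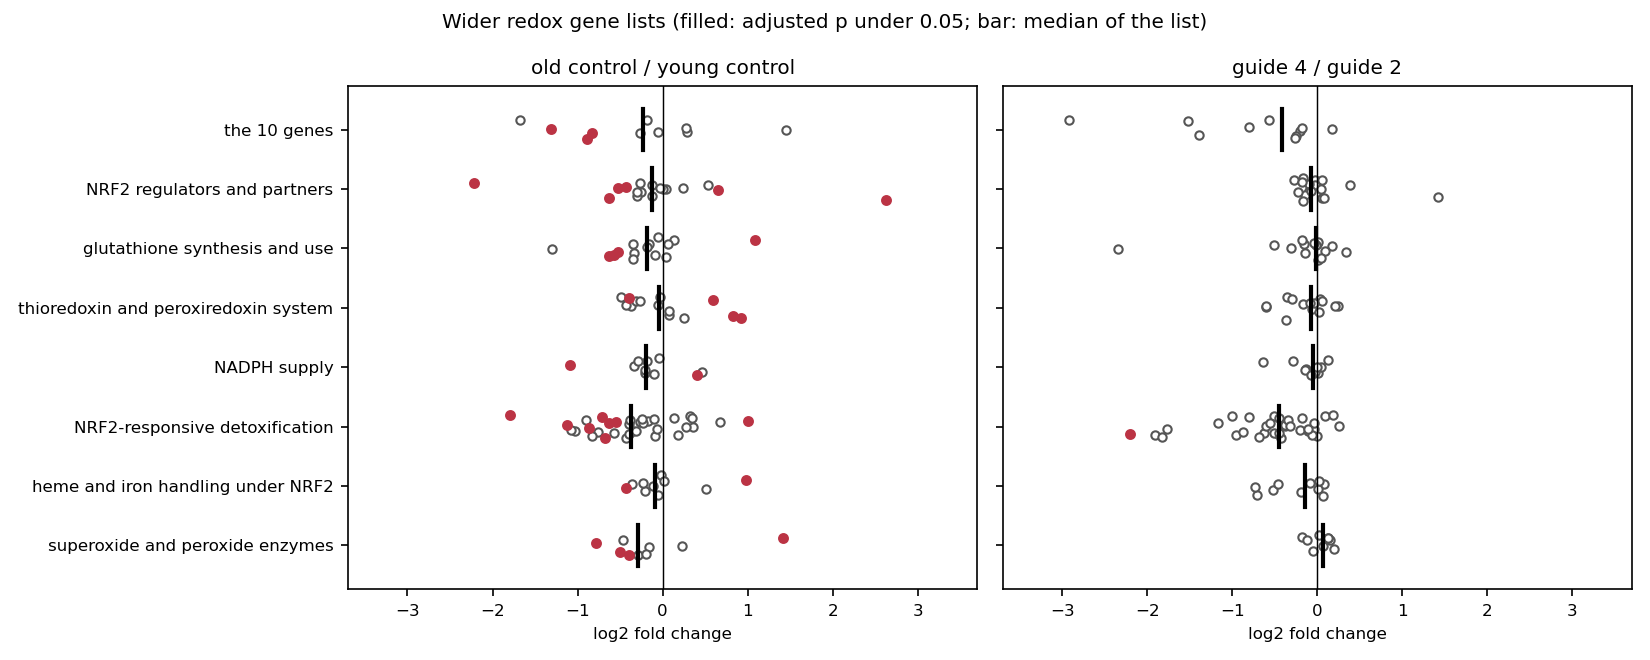
Log2 fold changes of the 10 genes and of 7 wider redox lists, for old against young control (left) and guide 4 against guide 2 (right); each point is a gene, filled where called at an adjusted p under 0.05, and the bar is the list's median. With age, calls lie on both sides; between guides, the 10 genes and the detoxification list have medians of -0.42 and -0.45 while the other medians lie between -0.14 and 0.06.

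The second comparison asked what hepatocyte Cd44 knockout changed in old livers. None of the 10 genes was called, as none of the 13909 genes was by edgeR's quasi-likelihood test (0%), with 2 of the 10 and 6.59% of all genes at an unadjusted p under 0.05. DESeq2 called 8 genes and limma voom called 0, none of them among the 10. The 2 genes were Cbr3, 2.46 to 3.82 CPM in old control and 2.61 to 25.1 CPM in knockout livers (log2 fold change 2.01, SE 0.75, adjusted p 0.744 by edgeR), and Hmox1, 21.6 to 159 CPM and 23.2 to 39.2 CPM (-1.32, SE 0.52, adjusted p 0.744 by edgeR). Neither held across its livers: both guide 4 livers lay within the old control range of Cbr3, and the Hmox1 difference was -0.14 without old control replicate 2. For none of the 10 genes were the groups separate, against 6.10% of all genes. The others lay between -0.39 (Slc7a11) and 0.57 (Nqo1), with SE of 0.11 for Keap1 to 0.64 for Slc7a11.

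The knockout livers divided by guide. Both livers with guide 2 had more of 8 of the 10 transcripts than both livers with guide 4, the exceptions being Nfe2l2 and Hmox1. Slc7a11, with 7 counts in 1 liver of each guide, is among the 8 only through scaling to library size. Over all genes tested, 20.4% were higher in both guide 2 livers and 18.1% in both guide 4 livers. The median log2 fold change of guide 4 against guide 2 was -0.42 over the 10 genes and 0.003 over all genes. None of the 10 was called in the fit over all livers (0.0216% of genes were), and 2 had an unadjusted p under 0.05, against 4.34% of all genes. Cbr3 was the eighth and Nqo1 the twenty-second gene by p-value.

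Cbr3 stood at 2.61 and 2.97 CPM in guide 4 livers and at 25.1 and 17.4 CPM in guide 2 livers, a 7.61-fold difference of means. The guide 2 livers lay above all 8 other livers, whose highest value was 15.9 CPM in young replicate 2. Guide 4 livers fell within the range of the old controls, 2.46 to 3.82 CPM. The log2 fold change of guide 4 against guide 2 was -2.92 (SE 0.47, unadjusted p 8.9e-05, adjusted p 0.138 by edgeR). DESeq2 called it (adjusted p 1.25e-06), as did edgeR without the low-count filter (0.0292) and edgeR on the 4 knockout livers alone (0.0146), and over the 10 alternatives the adjusted p reached 1.0 when a knockout liver was left out.

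Nqo1 stood at 10.6 and 15.6 CPM in guide 4 livers and at 38.8 and 30.2 CPM in guide 2 livers. Both guide 2 livers were above all 8 other livers, which reached 21.0 CPM in old control replicate 3. The log2 fold change was -1.39 (SE 0.27, unadjusted p 0.000396, adjusted p 0.25 by edgeR), and of the 10 alternatives DESeq2 alone called it (adjusted p 0.00223), the highest being 1.0. Nqo1 and Cbr3 were the 2 genes of the set whose guide 2 livers exceeded every other liver, against 2.96% of all genes tested.

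The remaining targets differed less. Srxn1 stood at 68.3 and 67.6 CPM in guide 4 livers and at 131 and 106 CPM in guide 2 livers (log2 fold change -0.80, SE 0.45). Gclc had 227 and 236 CPM against 367 and 319 CPM (-0.57, SE 0.28), Txnrd1 151 and 159 CPM against 191 and 181 CPM (-0.26, SE 0.29), and Gclm 125 and 128 CPM against 144 and 157 CPM (-0.25, SE 0.18). Keap1 differed by -0.18 (SE 0.14). For Slc7a11 the values were 4 and 7 counts with guide 4 and 7 and 22 counts with guide 2, or 0.23 and 0.31 CPM against 0.33 and 1.28 CPM, a separation too small to read at this depth. Nfe2l2 had 106 and 113 CPM against 110 and 142 CPM (-0.20, SE 0.31), so it overlapped between guides. Its fold change was nevertheless close to those of Gclm, Txnrd1 and Keap1, which did not overlap. Hmox1 had 25.0 and 39.2 CPM against 33.7 and 23.2 CPM (0.17, SE 0.72). For these 8 genes the edgeR adjusted p was 1.0, and 2 livers against 2 cannot give an exact two-sided permutation p below 0.333.

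**Figure D4:**
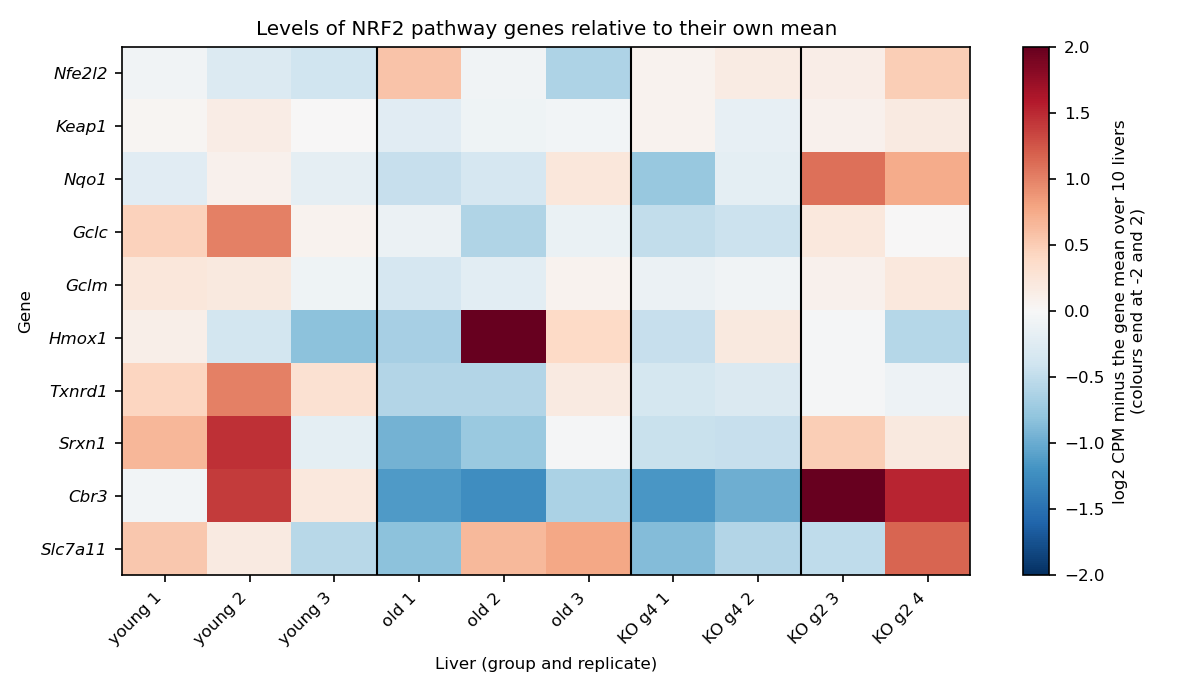
Log2 CPM of each gene (rows) minus its mean over the 10 livers, by liver (columns, grouped as young control, old control, knockout guide 4 and guide 2); red is above and blue below the gene's mean, with colours ending at -2 and 2. Cbr3 and Nqo1 are red in both guide 2 livers, young replicate 2 is red for Gclc, Txnrd1, Srxn1 and Cbr3, and Hmox1 is red in old control replicate 2.

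Set against the old controls, the pattern was one of higher levels with guide 2. Both guide 2 livers exceeded all 3 old controls for 6 of the 10 genes (Keap1, Nqo1, Gclc, Gclm, Srxn1 and Cbr3), against 9.56% of all genes. With guide 4 none of the 10 was separate from the old controls, in either direction, against 14.8% of all genes. These 2 comparisons share the old control livers and were added after the data were seen. Guide 2 against old control gave log2 fold changes of 2.83 for Cbr3 (SE 0.40, adjusted p 0.0561 by edgeR), 1.10 for Nqo1 (SE 0.24, adjusted p 0.228 by edgeR) and 0.86 for Srxn1 (SE 0.40, adjusted p 0.723 by edgeR). Guide 4 against old control gave -0.09 for Cbr3, -0.29 for Nqo1 and 0.06 for Srxn1, with SE of 0.43, 0.25 and 0.41.

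Most of the detoxification list was also higher with guide 2. Of its 34 genes, 24 were higher in both guide 2 livers and 2 in both guide 4 livers (20.4% and 18.1% of all genes), with a median log2 fold change of -0.45. Cyp2a5, a cytochrome P450 known to respond to NRF2, was the one gene called (253 and 382 CPM with guide 4, 1515 and 1416 CPM with guide 2, log2 fold change -2.21, SE 0.26, adjusted p 0.0332 by edgeR). It was lost with library totals (adjusted p 0.0765) and when any knockout liver was left out, and its reads may be shared with its paralog Cyp2a4. Of the other genes of this list, 10 had an unadjusted p under 0.05 and were singled out after their values were seen, the lowest adjusted p by edgeR being 0.25, for Abcc4. Among them were Abcc4, an exporter of conjugates (2.03 and 3.75 against 11.9 and 8.75 CPM), and Gstm3, a glutathione transferase (177 and 155 against 759 and 485 CPM). Gsta1, another transferase, had 51.2 and 51.7 against 199 and 153 CPM, and Cbr1, the neighbour and relative of Cbr3, 85.5 and 69.8 against 152 and 150 CPM. The glutathione transferases are close copies of each other, and reads may be split among them wrongly. In the other lists, genes higher in both guide 2 livers were compared with 20.4% of all genes. They were 6 of 10 heme and iron, 6 of 14 thioredoxin and 4 of 15 glutathione genes. The rest were 3 of 17 NRF2 regulators, partners and relatives, 1 of 10 NADPH genes and 1 of 9 superoxide and peroxide enzymes. The last 3 of these shares lie below that of all genes.

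The sums of 5 of the 9 cell type marker lists were also separate by guide. Of all single genes tested, 20.4% were higher in both guide 2 livers and 18.1% in both guide 4 livers. Among single markers, 2 of 10 hepatocyte, 4 of 7 T and NK cell and 1 of 6 B and plasma cell ones were separate. So were 4 of 7 cholangiocyte and 5 of 8 endothelial markers. Summed hepatocyte markers were 92732 and 95038 CPM in guide 4 livers and 97021 and 96461 CPM in guide 2 livers. T and NK cell markers (12.1 and 25.7 against 11.9 and 9.69 CPM) and B and plasma cell markers (29.8 and 24.7 against 24.4 and 21.6 CPM) were lower with guide 2. Cholangiocyte markers summed to 120 and 102 CPM against 139 and 191 CPM, and endothelial markers to 249 and 282 CPM against 243 and 228 CPM. Stellate and fibroblast markers overlapped, at 281 and 319 against 306 and 272 CPM, as did macrophage markers, at 581 and 999 against 635 and 508 CPM. The part of these cells in the difference between guides was not tested. Guide and any difference of handling between these pairs of livers cannot be told apart.

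**Figure D5:**
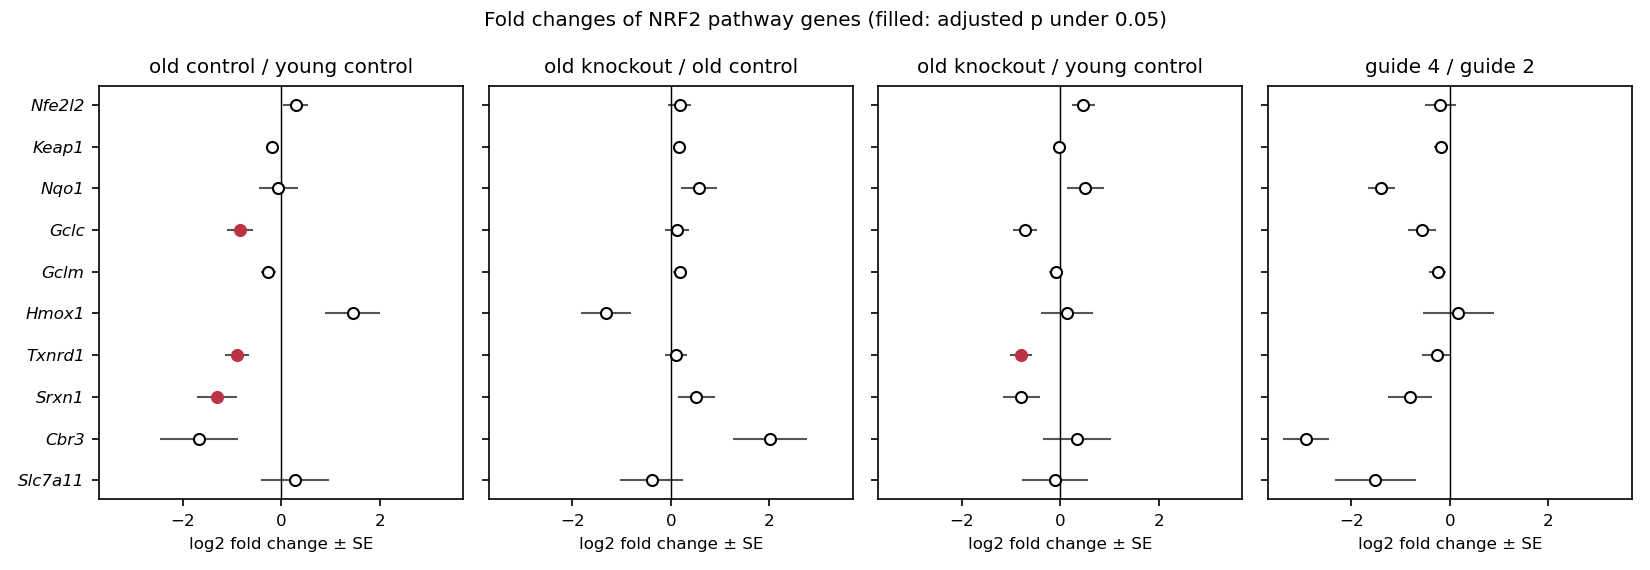
Log2 fold changes (points) with standard errors (bars) of the 10 genes in the 4 comparisons; filled points have an adjusted p under 0.05 in edgeR. Txnrd1 is filled in both comparisons with young livers, Gclc and Srxn1 in the age comparison, and Cbr3 lies farthest from 0 between guides at -2.92.

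The third comparison set the old knockout livers against the young ones and shares its livers with the first and second. Txnrd1 was called among the 10 genes, where 11.6% of all genes were. It had 151 to 191 CPM in the knockout livers against 239 to 387 CPM in young livers, a separation shared by 18.8% of all genes, and a log2 fold change of -0.79 (SE 0.22, adjusted p 0.0433 by edgeR). This call was lost in each of the 7 fits that left out 1 liver, with limma voom and with library totals (-0.46, adjusted p 0.0819), and over the 13 alternatives the adjusted p ran from 0.00761 to 0.188. Gclc (-0.72, adjusted p 0.0716 by edgeR) and Srxn1 (-0.79, adjusted p 0.158 by edgeR) did not pass, although Gclc was called by DESeq2 (adjusted p 0.0248) and in a fit of the young and knockout livers alone (adjusted p 0.0432). Nfe2l2 was higher in all 4 knockout livers, 106 to 142 CPM, than in the 3 young livers, 76.5 to 95.5 CPM, as were 21.1% of all genes, with a log2 fold change of 0.47 (SE 0.24, adjusted p 0.185 by edgeR) and p = 0.0286 in an exact permutation test (two-sided), which 4 against 3 livers cannot go below. Nfe2l2 was called in 2 of 13 alternatives, with library totals (0.79, adjusted p 0.048) and in that 2-group fit (0.47, adjusted p 0.0223), the highest adjusted p being 0.379. Txnrd1 gave the same permutation p, and 10 genes were tested in this way, so neither value would pass an adjustment over them. In the wider lists, Sod3 (1.05), Nfe2 (1.62), Sesn1 (0.65) and Slc40a1 (0.89) were called higher and Cat (-0.73), Cul3 (-0.53) and Glo1 (-0.39) lower. Of the 7 fits that left out 1 liver, 7 lost Nfe2 and Glo1, 6 lost Sesn1, Slc40a1, Cat and Cul3, and 5 lost Sod3. Among the detoxification genes, 0 of 34 were called.

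Among the young controls, 1 liver stood high for most of the set. Young replicate 2 was the highest young liver for 6 of the 10 genes, against 36.8% of all genes tested. It had 256 CPM of Srxn1 against 147 and 81.2, 15.9 CPM of Cbr3 against 5.75 and 6.91, and 387 CPM of Txnrd1 against 261 and 239. Among detoxification genes singled out after their values were seen, Gsta1 stood at 217 CPM against 110 and 93.1 and Gstm1 at 10167 CPM against 5349 and 4666. The labels give nothing that sets this liver apart.

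The transcripts most alike in pattern were found by the mean absolute difference of log2 CPM, each gene centred on its own mean over the 10 livers. For Txnrd1 they were Ugdh (0.09), Clp1 (0.10) and Dcun1d3 (0.11), and for Gclc they were Ugt2b5 (0.12), Ces1d (0.14) and Ugdh (0.15). Ugdh was thus near both genes. Nqo1 lay nearest to D630045J12Rik (0.21), Rnaset2b (0.21) and Mlkl (0.23), the last a gene of necroptosis. The nearest to Hmox1, among 3779 genes of wide enough range, were Fam167a (0.24), the chemokine gene Ccl7 (0.25) and the neutrophil gene Retnlg (0.27). Hmox1 lay 2.21 above its own mean in old control replicate 2 and at most 0.40 above it in any other liver. Gclm, which varied little, lay within 0.07 of Anxa7, Rab22a and Zfp87.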

How the data were processed

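RNA of 10 whole livers was analysed. Per the labels' protocols, polyadenylated RNA was made into libraries with the Watchmaker kit and sequenced in pairs on an Element AVITI instrument. The submitters' processing notes name FastQC 0.11.8, Trim Galore 0.4.4, STAR 2.5.3a, HOMER and the build mm10 (GRCm38). Which annotation was counted, and whether by strand, is not given in the sources used here. The authors deposited raw counts, that is whole reads for every symbol in each liver, not normalized.

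Counts were tested with edgeR 4.0.16 in R 4.3.3 (quasi-likelihood, 1 coefficient per group over all 10 livers, TMM factors, filterByExpr with a minimum count of 10 and a minimum total of 15). Guides were compared in a fit with a coefficient for each. P-values were adjusted by Benjamini-Hochberg over 13909 genes. The standard error is the log2 fold change over the root of F. Log2 CPM had a prior count of 2. CPM per kb used merged exons of GENCODE M21 on GRCm38. Alternatives were RLE factors, library totals, DESeq2 1.42.0, limma 3.58.1 voom, no filter, fewer groups and each liver left out. The test was also run on simulated counts with known fold changes. These held no shift of scaling between groups, so they cannot check the choice between TMM factors and library totals.

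The 10 genes, the lists and the tests were chosen with earlier results of these data known. By rule the text names the 10 genes, Cd44, up to 5 called genes per wider list, genes sharing a reaction with the set, and the 3 genes most alike to Nqo1, Gclc, Gclm, Txnrd1 and Hmox1. Replicate numbers follow the order of the records. The labels do not say that each library came from a separate animal, so p-values measure the spread between these samples, which may be technical in part. With 15821198 to 21710228 counts per liver, 3 counts correspond to 0.131 to 0.198 CPM, a floor that covers counting error only.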

Additional observations from a re-analysis of the deposited data

Results flagged for a closer look

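Slc7a11 in knockout replicate 4 lay far above the other 3 knockout livers, with a gap to the nearest of them equal to 0.907 of the whole range. It had 22 counts there against 4 to 7 in the others. Of 20 genes tested in this way 1 was found, the number that chance alone gives at 1 in 20.

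Cyp2a5 differed between the guide 4 and guide 2 livers in a direct test, with a log2 fold change of guide 4 against guide 2 of -2.21 (SE 0.26, edgeR adjusted p 0.0332), lower in 2 of 2 guide 4 livers. The call held in 5 of 10 alternatives and was lost with library totals and in the 4 fits that left out a knockout liver. Guide and handling of these pairs of livers cannot be told apart.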

How the results depend on the processing

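No paired analysis was possible because nothing in the sample labels ties a liver of 1 group to a liver of another. For single genes, 1190 values were recomputed: 926 kept their direction and their side of the threshold, 196 lost the call, 30 gained one and 38 changed sign. With age 3172 genes and 3 of the 10 were called, against 1192 and 1 (Cbr3, none of the 3) with only the groups compared and 1 of the 10 (Txnrd1) with limma voom. For the knockout, DESeq2 called 8 genes and guide 2 alone 3 genes, against 0. For knockout against young, 1614 genes and 1 of the 10 were called, against 2803 and 2 with DESeq2, 3585 and 1 (Nfe2l2 in place of Txnrd1) with library totals, 969 and 0 with voom, and 4223 and 3 with only the groups compared. Between guides, 3 genes and 0 of the 10 were called, against 73 and 2 with DESeq2, 10 and 1 without the filter, and 31 and 1 with only the knockout livers.

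Leaving out each liver in turn gave 396 (without young replicate 2) to 5327 (without old control replicate 3) genes with age and 0 to 4 of the 10, with 0 without young replicate 2 or old control replicate 2, 1 without young replicate 1 (Txnrd1) and 1 without old control replicate 1 (Hmox1, none of the 3). The knockout gave 0 to 3 genes, knockout against young 56 to 1652 genes and 0 of the 10 in every fit, and guides 0 genes. Where 1 liver of a guide remained, it was assumed to vary like the others.

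Signs that changed belonged to genes that were not called. With library totals the age values were 0.12 for Keap1, 0.23 for Nqo1, 0.0366 for Gclm and 0.15 for Bach1, and those of knockout against young were 0.30 for Keap1, 0.24 for Gclm and 0.21 for Slc7a11. Voom gave -0.16 for Cbr3 in the latter. Against old control, guide 2 alone gave 0.19 for Slc7a11, and guide 4 alone gave -0.29 for Nqo1, -0.19 for Gclc, -0.0372 for Txnrd1, -0.0893 for Cbr3 and 0.0374 for Cd44. Over fits that left out 1 liver, age values ran from -0.0783 to 0.53 for Nfe2l2, -0.30 to 0.0678 for Nqo1, -0.0267 to 0.67 for Slc7a11 and -0.40 to 0.0395 for Bach1. Knockout values ran from -0.064 to 0.55 for Nfe2l2, -0.0222 to 0.21 for Gclc and -0.0317 to 0.41 for Txnrd1. Knockout against young ran from -0.0613 to 0.0468 for Keap1, -0.0752 to 0.40 for Hmox1, -0.33 to 0.92 for Cbr3 and -0.95 to 0.21 for Slc7a11, and guides from -0.19 to 0.47 for Hmox1. The cause of these changes was not tested. Depth limits Slc7a11, with 4 to 22 counts per liver.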
